A study of Mus musculus with 6 samples.

Results

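The cytosolic ribosome of gastrocnemius, a fast calf muscle, was followed through its protein genes. Members were rows with an Rpl or Rps symbol made of a number and an optional a or x, together with Rpsa, Rplp0, Rplp1, Rplp2 and Rpl3l. Processed pseudogenes carrying a -ps suffix and the Rps6k kinases were left out. The rule gave 77 genes of 23282 rows, 30 of the small and 47 of the large subunit, and each of the 77 had counts in every library. RNA was sequenced from wild-type (WT) male C57/BL6J mice aged 20 months. The inotodiol group received this lanostane triterpenoid of the chaga mushroom by mouth each day at 0.35 mg/kg for 10 weeks, and the vehicle group received 40% polyethylene glycol, 5% Tween 80 and 0.9% saline. Each group had 3 mice, given as biological replicates, and no untreated or young mice were among the samples.

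The cytosolic ribosome joins a small subunit, which reads the messenger RNA, to a large subunit, which forms the peptide bond. Each subunit takes up 1 copy of most of its proteins, so these genes are known to be made in matched amounts, and their messenger RNAs begin with a pyrimidine tract (the TOP motif) through which the growth kinase mTORC1 controls their translation. Striated muscle is known for a paralogue of its own, Rpl3l, which can take the place of Rpl3 near the peptidyl transferase centre.

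The start sites of 6 members on which the results turn are shown because a TOP motif, where present, begins there. Windows of 30 bases come from the RefSeq promoter sequences of GRCm38.p6 (250 bases before to 50 after the start), are read along the gene's own strand, and carry in capitals the longest run of C or T found between 10 bases before and 50 after the annotated start.
Rps27 (chr3:90213632-90213661, minus strand): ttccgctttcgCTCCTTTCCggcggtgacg
Rps13 (chr7:116334161-116334190, minus strand): tgagtggcgtcaCTTCCTgtgcggcttgat
Rpl26 (chr11:68901579-68901608, plus strand): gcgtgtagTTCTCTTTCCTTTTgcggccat
Rpsa (chr9:120127774-120127803, plus strand): tccggccgcccgTCCTTTCgcgctacccgg
Rpl11 (chr4:136053358-136053387, minus strand): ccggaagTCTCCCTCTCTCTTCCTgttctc
Rpl3l (chr17:24727846-24727875, plus strand): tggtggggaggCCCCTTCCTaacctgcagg
The run was 17 bases in Rpl11 and 14 in Rpl26, against 9 in Rps27, 9 in Rpl3l, 7 in Rpsa and 6 in Rps13. Relative to the annotated start it began at -2 in Rps27, 12 in Rps13, 13 in Rpl11, 20 in Rpsa, 21 in Rpl26 and 31 in Rpl3l. A run that begins past the annotated start is not shown to be a TOP motif.

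Promoter sequences were matched for 57 of the 77 members. A run of at least 8 bases of C or T was found near the start in 40 of the 57 (70.2%), and in 21.2% of 27025 promoters of all genes. The median longest run was 10 bases in members and 5 in all genes. On both strands of the 300-base promoters, the letters CCGGAAG, an ETS-type motif, stood in 22 of 57 members (38.6%) and in 9.14% of all promoters. TATAAA, the TATA box letters, stood in 6 members (10.5%) and in 14.2% of all promoters. CAGCTG, an E-box that myogenic factors can bind, was in 3 members (5.26%), Rpl3l among them, and in 16.1% of all promoters. These letter matches describe the sequences and do not show that a factor binds there.

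Total counts lay between 8961893 and 9953764 per library. All 77 members were among the 11700 genes kept for testing. A member had between 210 and 17143 counts in a library. The summed level of 12 fast muscle fibre markers was 182825 to 194273 unscaled CPM (counts scaled to a common library total) in inotodiol libraries and 185602 to 202018 in vehicle libraries, and no marker was at 0. Rn45s, the precursor of ribosomal RNA, took 10.2%, 9.56% and 4.33% of counts in inotodiol libraries 1 to 3 and 3.97%, 6.82% and 4.38% in vehicle libraries 1 to 3. Its log2 fold change was 0.80 ± 0.28 (SE), with an adjusted p of 0.96 in edgeR's quasi-likelihood test. Below, CPM is scaled by TMM, edgeR's trimmed mean of M-values, and a log2 fold change is inotodiol over vehicle.

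The share of ribosomal protein transcripts overlapped between inotodiol and vehicle muscle. They made up 1.64%, 1.47% and 2.02% of counts in inotodiol libraries 1 to 3, against 1.72%, 1.56% and 1.83% in vehicle libraries 1 to 3. Inotodiol library 3 was the highest and inotodiol library 2 the lowest, so the vehicle values lay inside the inotodiol range. The mean was 1.71% ± 0.283 with inotodiol and 1.70% ± 0.134 with vehicle (SD, n = 3 each). In bulk muscle, fewer cells of a type and less RNA per cell cannot be told apart.

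The size of that difference depended on what the counts were divided by. With Rn45s taken out of the library total, the share was 1.85% ± 0.246 with inotodiol and 1.79% ± 0.119 with vehicle. Against the TMM effective library size it was 1.77%, 1.58% and 1.98% in inotodiol libraries and 1.62%, 1.56% and 1.72% in vehicle libraries. The inotodiol mean was then 0.141 percentage points higher, about as large as the pooled SD of these shares within groups, 0.151 points. Without inotodiol library 3 the difference in share of library totals was -0.149 points, against 0.0068 with it. The other libraries left out in turn gave 0.043 without inotodiol library 1, 0.127 without inotodiol library 2, and 0.015, -0.064 and 0.070 without vehicle libraries 1, 2 and 3.

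The 2 subunits moved together from mouse to mouse. Counts of small subunit genes divided by those of large subunit genes gave 0.582, 0.578 and 0.605 in inotodiol libraries 1 to 3 and 0.595, 0.582 and 0.599 in vehicle libraries 1 to 3. The members' mean deviation from their own mean log2 level was 0.054, -0.098 and 0.22 in inotodiol libraries and -0.076, -0.13 and 0.031 in vehicle libraries. Inotodiol library 3 stood apart, with 73 of 77 members above their own mean and 59 at their highest level of the 6 libraries. Inotodiol library 2 resembled the lower vehicle libraries, with 12 members above their mean, against 16 and 9 in vehicle libraries 1 and 2.

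The 4 members below their own mean in inotodiol library 3 were Rpl3l, Rpl6, Rpl11 and Rps6. Over all genes tested, 51.4% to 52.6% were above their own mean in a library. Schwann cell markers (7 genes, none at 0 in every library) also had their highest sum in that library. They summed to 94.6, 90.8 and 194 unscaled CPM in inotodiol libraries 1 to 3 and to 93.7, 70.2 and 99.8 in vehicle libraries. The sum for 6 erythroid markers was lowest there, at 7639, 13983 and 4375 unscaled CPM in inotodiol libraries and 5611 to 7966 in vehicle libraries. The part of these cells and of Rn45s in the ribosomal protein levels was not tested.

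**Figure D1:**
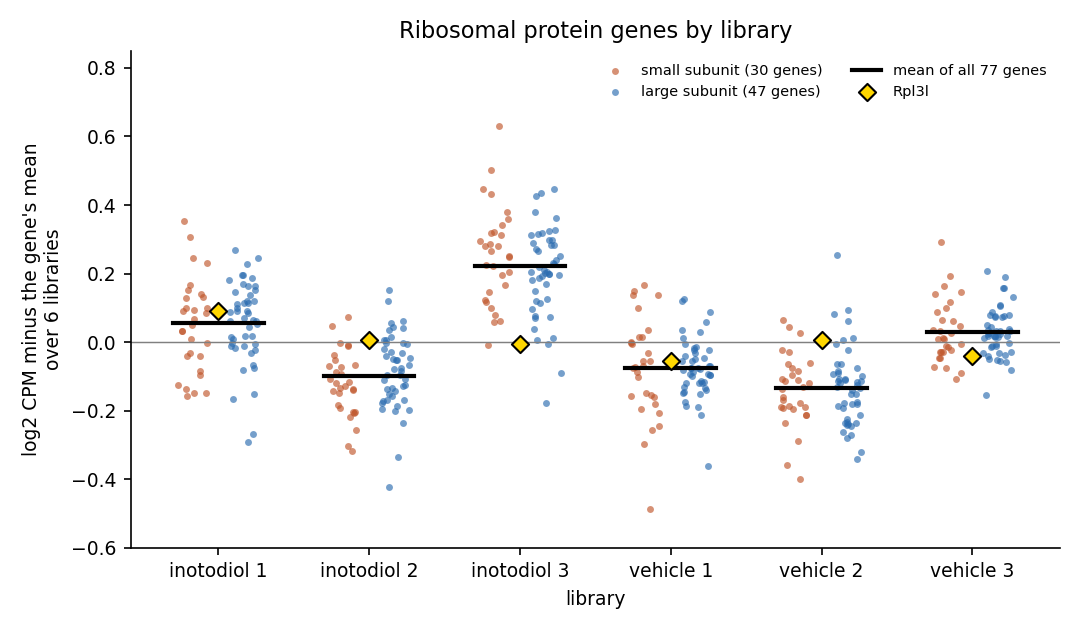
Deviation of each of the 77 ribosomal protein genes from its own mean log2 CPM (vertical axis, log2 units) in the 3 inotodiol libraries and the 3 vehicle libraries (horizontal axis). Points are genes, black bars library means and diamonds Rpl3l. The means ran from -0.098 to 0.22 with inotodiol and from -0.13 to 0.031 with vehicle, and inotodiol library 3 was the highest.

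No ribosomal protein gene passed an adjusted p under 0.05, and neither did any other gene (0.0% of 11700 tested) in edgeR's quasi-likelihood test. The smallest adjusted p among members was 0.89. At an unadjusted p under 0.05, 5 members were higher with inotodiol (6.49%, against 2.67% of all genes) and 0 were lower (2.21% of all genes). DESeq2 and limma-voom also called 0 members, each with 5 at an unadjusted p under 0.05. The edgeR count of 5 rested on the libraries used. In either direction it was 13 without inotodiol library 2, 0 without inotodiol library 3 and 2 without inotodiol library 1. It was 1, 1 and 4 without vehicle libraries 1, 2 and 3. The share of all genes at that p in these runs is not given here. These counts therefore show only how far the count depended on single libraries. The groups did not overlap for 8 members that were higher with inotodiol (10.4%, against 5.15% of all genes) and for 1 that was lower (1.30%, against 5.26%).

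Most members leaned the same small way. The log2 fold change was above 0 in 66 of 77 members (85.7%, against 49.9% of all genes), in 23 of 30 small subunit genes and 43 of 47 large subunit genes. Its median was 0.12 over members and -0.00073 over all genes, with a range over members of -0.32 to 0.63 and a median standard error of 0.14. The median was 0.097 in the small and 0.15 in the large subunit. The members vary together within a library, so these counts are not 77 separate measurements.

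Markers of other cell types differed between the same libraries. Of the hepatocyte list, 11 of 11 genes tested were above 0 with a median log2 fold change of 2.82. At an unadjusted p under 0.05 in the edgeR test, 10 of them were higher (90.9%, against 2.67% of all genes). The 12 listed genes summed to 637, 270 and 111 unscaled CPM in inotodiol libraries 1 to 3 and to 32.0, 89.6 and 71.6 in vehicle libraries 1 to 3. Of the fibroblast list, 0 of 7 genes were above 0, with a median of -0.22. At an unadjusted p under 0.05 in the same test, 3 were lower (42.9%, against 2.21% of all genes). None of either list passed the adjusted threshold. Genes above 0 numbered 6 of 6 tested for erythroid, 6 of 6 for Schwann cell, 4 of 4 for satellite cell and regeneration and 2 of 2 for lymphocyte markers. They numbered 10 of 12 for fast muscle fibre, 5 of 7 for endothelial, 3 of 10 for macrophage and 1 of 5 for adipocyte markers. The part of these cells in the members' lean was not tested.

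The lean was smaller without inotodiol library 3 and larger without inotodiol library 2. Without inotodiol library 3, 45 of 77 members were above 0, against 49.4% of all genes, and the median was 0.038. Without inotodiol library 2, 68 of 77 were above 0 and the median was 0.21, and the other libraries left out in turn gave medians of 0.090 to 0.16. The choice of scale moved the median of all genes as well. With library totals in place of TMM the count was 41 of 77 and the median 0.0034, while the median of all genes moved to -0.12, with 33.2% of genes above 0. Measured from the median of all genes, the members' median was 0.12 under both scalings.

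The 95% intervals give, gene by gene on the TMM scale, the fold changes that the values allow. These intervals are not adjusted for the number of genes tested, so they do not measure what the adjusted test could miss. They lay within 1 log2 unit of 0 for 76 of 77 members, with Rps27 as the exception at an upper bound of 1.07. The median half-width was 0.31. The median coefficient of variation over the 6 libraries was 11.8% for members, against 23.0% for all genes tested. Low counts raise this measure, and every member had at least 210 counts in each library. Genes were not matched for level, so the contrast does not show that members vary less between mice.

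**Figure D2:**
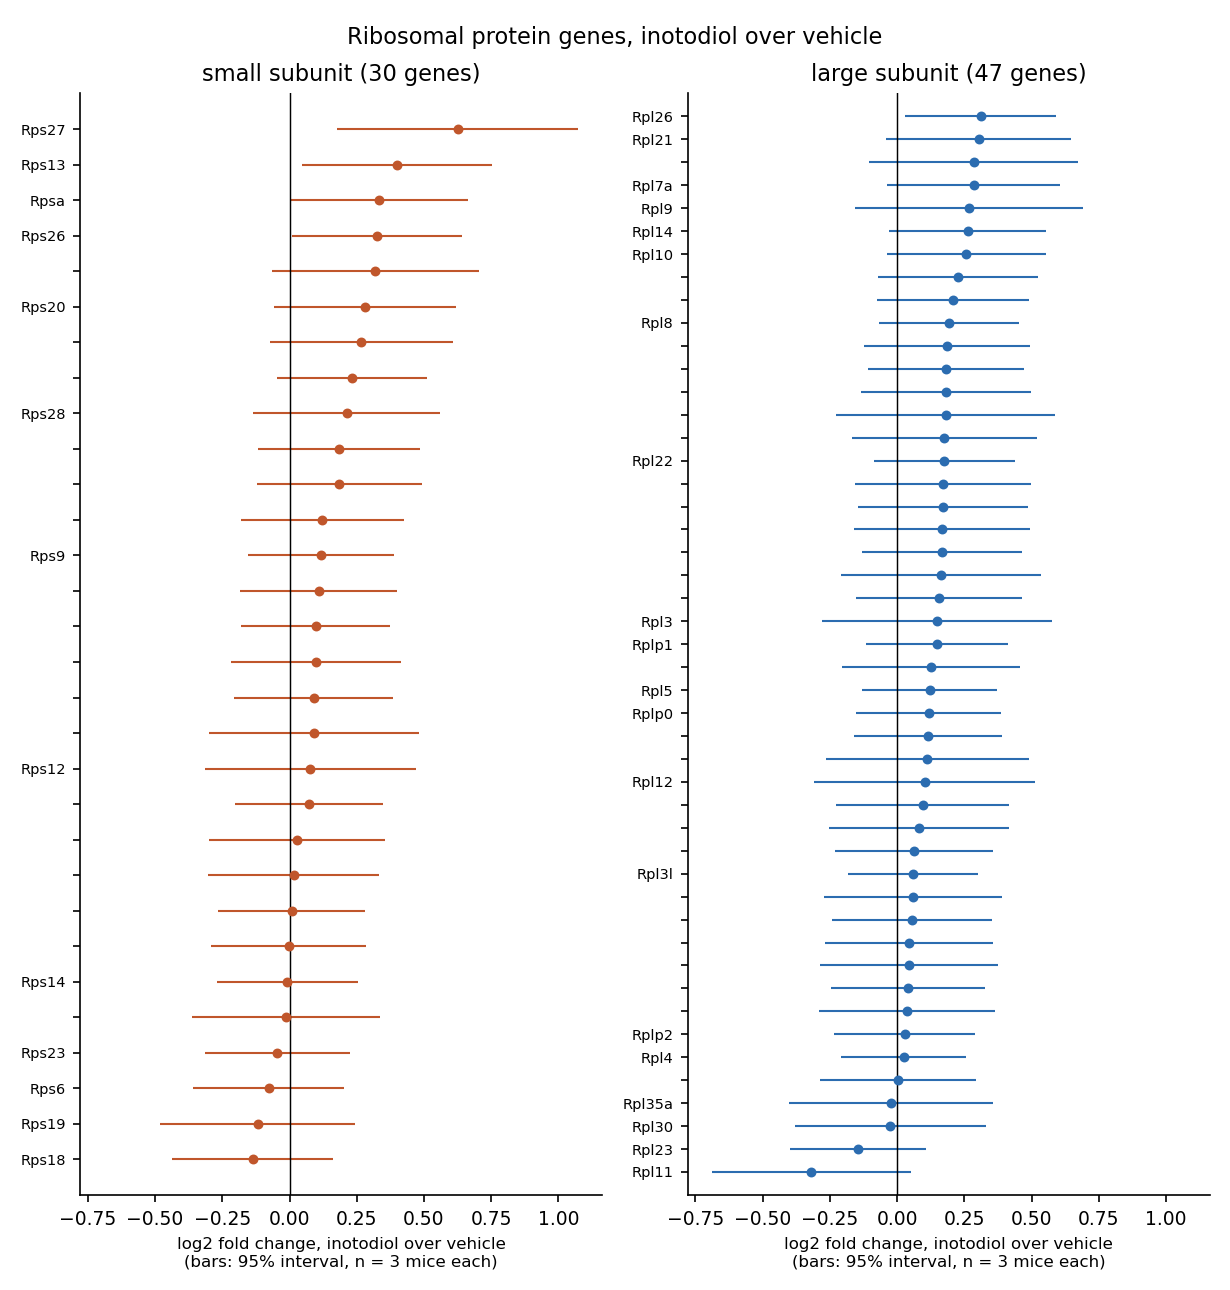
Log2 fold change of inotodiol over vehicle (horizontal axis) for each of the 77 genes (points), with bars for 95% intervals, small subunit on the left and large subunit on the right; most genes described in the text are labelled. Values ran from -0.32 (Rpl11) to 0.63 (Rps27), and 66 of 77 points lay above 0.

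Among small subunit genes the highest fold change belonged to Rps27 (chromosome 3, 90212522 to 90213651, GRCm38), which encodes a zinc-finger protein. Rps27 had 45.2, 33.6 and 54.8 CPM in inotodiol muscle, against 25.2, 26.8 and 34.7 CPM in vehicle muscle. Inotodiol libraries 1 and 3 were above all vehicle libraries, while inotodiol library 2 lay just under vehicle library 3. The mean was 44.6 ± 10.6 CPM with inotodiol and 28.9 ± 5.08 CPM with vehicle (SD, n = 3 each), a log2 fold change of 0.63 ± 0.21 (SE; edgeR quasi-likelihood unadjusted p = 0.00999, adjusted p = 0.89). Its retrogene Rps27rt had 695, 503 and 778 counts in inotodiol libraries and 459, 502 and 663 in vehicle libraries. Of the 50-base words in the Rps27 transcript, 98.7% occur in another gene's transcript, so the values of this gene are uncertain.

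Rps13, a protein at the interface between the subunits, did not overlap between the groups. Its levels were 94.2, 88.3 and 126 CPM with inotodiol and 75.0, 72.7 and 86.0 CPM with vehicle, and every inotodiol library was above every vehicle library. The log2 fold change was 0.40 ± 0.16 (adjusted p = 0.96 in edgeR's quasi-likelihood test). Without inotodiol library 3 the Rps13 value was 0.23.

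Rps26, which lies where messenger RNA leaves the small subunit, had 213, 159 and 210 CPM in inotodiol muscle and 144, 151 and 170 CPM in vehicle muscle. Rpsa, the laminin receptor precursor and a ribosomal protein in its own right, had 164, 128 and 183 CPM with inotodiol and 114, 130 and 133 CPM with vehicle. In both genes inotodiol libraries 1 and 3 were above all vehicle libraries and inotodiol library 2 was not. The log2 fold changes were 0.33 ± 0.15 for Rps26 and 0.33 ± 0.15 for Rpsa, each with an adjusted p of 0.96 in the edgeR test. Rps20, a protein of the subunit's head and 1 of its most abundant transcripts, had 751.9 ± 158 CPM with inotodiol and 619 ± 80.1 CPM with vehicle.

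Small subunit genes with values below 0 had smaller differences. Rps18, a head protein that touches the large subunit, had 114, 113 and 130 CPM in inotodiol muscle and 138, 115 and 139 CPM in vehicle muscle, with overlapping groups. Rps6, the phosphorylation target of the S6 kinases downstream of mTORC1, had 115, 113 and 118 CPM with inotodiol and 118, 116 and 131 CPM with vehicle. The log2 fold changes were -0.14 ± 0.14 for Rps18 and -0.078 ± 0.13 for Rps6. Rps19, the gene most often mutated in human Diamond-Blackfan anaemia, stood at -0.12 ± 0.17, and Rps23, a protein of the decoding centre, at -0.045 ± 0.13.

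Large subunit genes, 47 of the 77 members, held 7 of the 8 that were higher without overlap (14.9% of the 47). The share was 3.33% of the 30 small subunit genes and 5.15% of all genes. By unadjusted p under 0.05 in the edgeR test the order was the reverse. Then 1 large subunit gene (2.13%) and 4 small subunit genes (13.3%) were higher, against 2.67% of all genes. The 7 were Rpl5, Rpl7a, Rpl8, Rpl10, Rpl14, Rpl21 and Rpl26. Rpl26, which lies beside the exit tunnel for the nascent chain, had 404, 343 and 442 CPM in inotodiol muscle, against 314, 302 and 342 CPM in vehicle muscle. Inotodiol library 2 and vehicle library 3 differed by less than 1 CPM, and the groups were otherwise well apart. The log2 fold change was 0.31 ± 0.13 (unadjusted p = 0.0324, adjusted p = 0.96, edgeR quasi-likelihood test).

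The other large subunit genes had smaller values still. Rpl10, a late-joining protein that completes the subunit in the cytoplasm, had 158, 150.1 and 187 CPM with inotodiol and 141, 128 and 145 CPM with vehicle. Rpl14 stood at a log2 fold change of 0.26 ± 0.14, Rpl7a at 0.28 ± 0.15 and Rpl21 at 0.30 ± 0.16. Rpl8, a core protein near the peptidyl transferase centre, stood at 0.19 ± 0.12. Of these, Rpl7a shares sequence with 120 pseudogenes and Rpl21 with 81, and their single values are uncertain.

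Rpl11 was the 1 member lower with inotodiol without overlap, and it binds 5S ribosomal RNA together with Rpl5 and can bind the p53 regulator Mdm2. It had 25.9, 29.7 and 29.8 CPM in inotodiol muscle and 32.5, 37.9 and 36.2 CPM in vehicle muscle. The inotodiol mean was 28.5 ± 2.22 CPM and the vehicle mean 35.6 ± 2.74 CPM (SD, n = 3 each), a log2 fold change of -0.32 ± 0.17 (SE; unadjusted p = 0.0856, adjusted p = 0.96, edgeR quasi-likelihood test). Leaving out any 1 library gave between -0.38 and -0.26. Its partner Rpl5 had 288, 283 and 290.2 CPM with inotodiol and 253, 274 and 264 CPM with vehicle. Rpl5 was thus higher and Rpl11 lower in every inotodiol library than in every vehicle library, and neither passed the adjusted threshold. Of the 50-base words of Rpl5, 93.8% are shared with other genes, and of those of Rpl11, 62.2%. Among the last 250 words of the transcript, 100% are shared for Rpl5 and 0% for Rpl11. The library kit was of the 3-prime type, which reads from transcript ends. Whether the counts come from ends alone was not settled, so it is open which of these percentages applies. If they do, the last 250 words of the transcript used are the closer guide.

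Rpl23 is an intersubunit protein on which the factor eIF6 docks. It had 322, 332 and 367 CPM in inotodiol muscle and 390, 373 and 366 CPM in vehicle muscle. Only inotodiol library 3 reached the vehicle range, and the log2 fold change was -0.14 ± 0.12. Rpl30 stood at -0.025 ± 0.16 and Rpl35a at -0.022 ± 0.18, so both were close to 0.

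The acidic stalk, which recruits the elongation factors to the ribosome, is built from Rplp0, Rplp1 and Rplp2. Rplp1 was the most abundant member, with 1546, 1311 and 1757 CPM in inotodiol muscle and 1387, 1359 and 1419 CPM in vehicle muscle. Its inotodiol libraries spread on both sides of the vehicle range, and the log2 fold change was 0.15 ± 0.12. Rplp0, often used as a reference gene in quantitative PCR, had 449, 376 and 468 CPM with inotodiol and 381, 392 and 420 CPM with vehicle, a log2 fold change of 0.12 ± 0.13. Rplp2 had 391, 348 and 412 CPM with inotodiol and 371, 358 and 400 CPM with vehicle. Its log2 fold change was 0.028 ± 0.12. The pseudogene row Rplp2-ps1 had more counts than Rplp2 in every library, so the level of Rplp2 is uncertain.

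The make-up of the ribosomal protein pool was compared as shares. Each member's counts were divided by the summed counts of all 77, which removes the common level of a library. The difference in share was within 0.2 log2 units for 69 of 77 members, and the median coefficient of variation of a share over the 6 libraries was 7.49%. Rplp1, Rpl4, Rps14 and Rps20 together made up 22.2% to 22.8% of the pool in every library.

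On this scale 12 members were higher without overlap with inotodiol (15.6%, against 2.39% of all genes) and 5 were lower (6.49%, against 7.88%). Division by the members' own total centres the members and moves other genes down. With it 33.8% of all genes tested had a log2 fold change above 0, against 49.9% under TMM. Both contrasts with all genes are thus partly set by the divisor, and they do not show that members differ from other genes. The 5 lower ones were Rpl11, Rpl23, Rps18, Rps6 and Rplp2. The share of Rpl11 was 0.162% ± 0.0227 with inotodiol and 0.218% ± 0.0224 with vehicle. The share of Rpl23 was 1.92% ± 0.150 with inotodiol and 2.31% ± 0.158 with vehicle. Rps27 had the largest difference upward, at 0.249% ± 0.0331 with inotodiol and 0.176% ± 0.0233 with vehicle (SD, n = 3 each). No test was run on these shares.

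In the counts of this muscle Rpl3l far outnumbered Rpl3. Rpl3 (chromosome 15, 80077791 to 80091868, minus strand, GRCm38) encodes the general protein, and Rpl3l (chromosome 17, 24727820 to 24736143, plus strand) the striated muscle form. Their first 60 coding bases, from the GENCODE M21 transcripts, are shown because counting can tell the genes apart only where they differ, and the capitals mark the 13 differing bases.
Rpl3: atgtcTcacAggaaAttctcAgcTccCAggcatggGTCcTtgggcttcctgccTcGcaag
Rpl3l: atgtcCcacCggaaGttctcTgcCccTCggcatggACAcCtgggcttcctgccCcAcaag
Over 1210 aligned coding bases 897 were identical (74.1%), and the longest identical run was 22 bases. Rpl3l shares no 50-base word with any other gene, whereas 85.6% of those of Rpl3 occur in 26 other genes, all pseudogenes. The level of Rpl3, and with it any ratio to Rpl3, is therefore uncertain.

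Rpl3l had 4858, 4479 and 4809 counts in inotodiol libraries 1 to 3 and 4523, 4605 and 4903 counts in vehicle libraries 1 to 3. Rpl3 had 488, 295 and 537 counts in inotodiol libraries and 395, 375 and 456 counts in vehicle libraries. The count ratio of Rpl3l to Rpl3 was thus 9.96, 15.2 and 8.96 with inotodiol and 11.5, 12.3 and 10.8 with vehicle. Per transcript length the ratio ran from 8.80 to 14.9 over the 6 libraries. Rpl3l had the larger count in each, and inotodiol library 2 had both the highest ratio and the lowest Rpl3. How far shared sequence changed the Rpl3 counts, and so the size of the ratio, was not tested.

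Rpl3l made up 90.9%, 93.8% and 90.0% of the pair's counts in inotodiol libraries 1 to 3. In vehicle libraries 1 to 3 it made up 92.0%, 92.5% and 91.5%. The exact 95% binomial intervals, which cover counting error only, spanned 89.1% to 94.5% over the inotodiol libraries and 90.7% to 93.2% over the vehicle libraries. The interval of inotodiol library 2, 93.1% to 94.5%, lay above those of the other inotodiol libraries, 90.1% to 91.6% and 89.1% to 90.8%.

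The balance between the paralogues did not differ detectably between the groups. The mean log2 ratio was 3.47 ± 0.40 with inotodiol and 3.52 ± 0.096 with vehicle (SD, n = 3 each), a difference of -0.053. A two-sided exact permutation test gave p = 0.9, where 3 against 3 allows no p below 0.1. The difference changed sign when inotodiol library 1 (0.023) or inotodiol library 3 (0.099) was left out. The spread of the ratio was wider among inotodiol mice, from 8.96 to 15.2, than among vehicle mice, from 10.8 to 12.3, and that difference in spread was not tested.

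Rpl3l itself was among the steadiest members in TMM-scaled CPM, but not as a share of the pool. There its coefficient of variation was 8.71%, against a median of 7.49% over members. Rpl3l had 527, 497 and 493 CPM with inotodiol and 476, 497 and 482 CPM with vehicle. The coefficient of variation of these levels was 3.58%, the second lowest after Rpl4 at 2.99%. Rpl3 had 53.0, 32.7 and 55.0 CPM with inotodiol and 41.6, 40.5 and 44.8 CPM with vehicle, a coefficient of variation of 18.6%. The log2 fold change was 0.060 ± 0.11 for Rpl3l, with a 95% interval of -0.18 to 0.30, and 0.15 ± 0.20 for Rpl3, with an interval of -0.28 to 0.58. The Rpl3 value was 0.018 without inotodiol library 3 and 0.35 without inotodiol library 2. With library totals in place of TMM the Rpl3l value was -0.058.

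**Figure D3:**
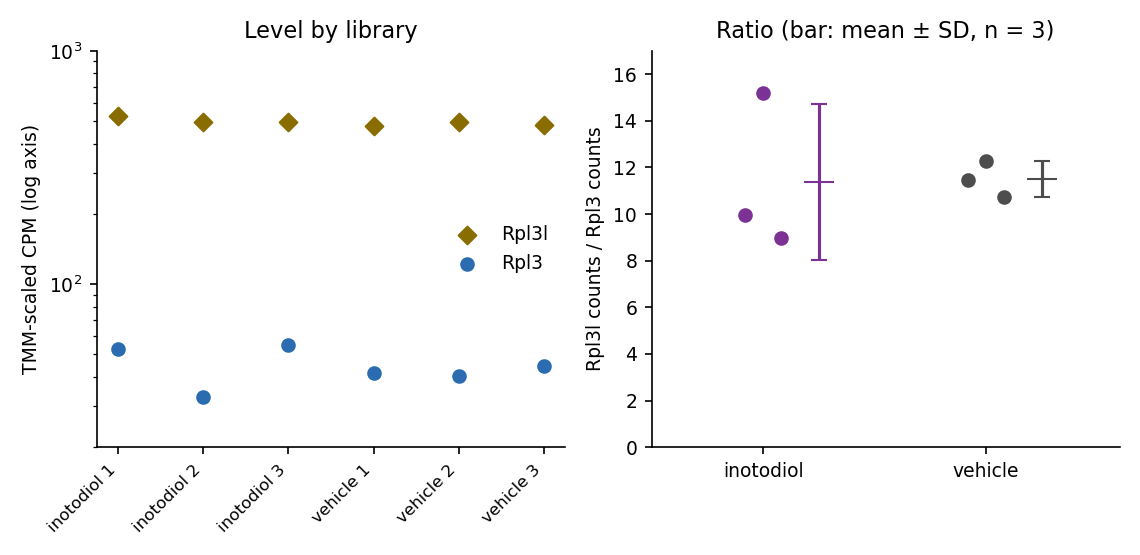
TMM-scaled CPM of Rpl3l and Rpl3 (log axis) and the ratio of their counts in each inotodiol and vehicle library, with bars for the mean ± SD (n = 3). Rpl3l lay between 476 and 527 CPM and Rpl3 between 32.7 and 55.0 CPM, and the ratio ran from 8.96 to 15.2 with inotodiol and from 10.8 to 12.3 with vehicle.

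Members differed far more from each other than between the groups. Mean CPM over the 6 libraries spanned 54.1-fold, from 27.1 for Rpl12, a protein at the base of the stalk, to 1463 for Rplp1. Per kilobase of transcript the span was 135-fold, and Rplp1, Rps14 and Rpl22 were then the highest at 2932, 1289 and 1166 CPM per kilobase. The lowest per kilobase were Rpl12 at 21.8, Rpl3 at 33.0 and Rpl11 at 38.4. Values per kilobase depend on the transcript used for a gene, which was 1242 bases long for Rpl12. They would mislead if counts come from transcript ends alone, which was not settled. Rps20 and Rps15a, with transcripts of 3706 and 5130 bases, ranked 4 and 18 by CPM but 37 and 68 per kilobase. Rpl3l ranked 8 of 77 by CPM and 15 per kilobase, and Rpl3 ranked 69 by CPM and 76 per kilobase.

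Among abundant members, Rpl4, Rps14 and Rpl22 had overlapping groups. Rpl4, which lines the exit tunnel, had 895, 893 and 949.9 CPM in inotodiol muscle and 877, 891 and 925 CPM in vehicle muscle. Its log2 fold change was 0.024 ± 0.11, and its spread in TMM-scaled CPM was the lowest of all members. Rps14, a protein of the small subunit's platform, had 746, 723 and 833 CPM with inotodiol and 687, 781 and 846 CPM with vehicle, a log2 fold change of -0.0077 ± 0.12. Rpl22, whose loss the ribosome tolerates, had 595, 531 and 633 CPM with inotodiol and 544, 475 and 538 CPM with vehicle, a log2 fold change of 0.18 ± 0.12.

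Rps9 had 633, 536 and 694 CPM with inotodiol and 566, 543 and 609.6 CPM with vehicle. At the low end Rpl12 had 27.2, 24.4 and 32.4 CPM in inotodiol muscle and 28.0, 22.7 and 27.6 CPM in vehicle muscle. Rpl9 stood at a log2 fold change of 0.27 ± 0.20, Rps28 at 0.21 ± 0.16 (0.096 without inotodiol library 3) and Rps12 at 0.078 ± 0.18, with overlapping groups in each. The genes are spread over 19 chromosomes, with 14 of the 77 on chromosome 7 and 4 on the X chromosome. The X-linked members Rpl10, Rpl36a, Rpl39 and Rps4x stood at 0.26 ± 0.14, 0.18 ± 0.16, 0.095 ± 0.15 and 0.097 ± 0.13.

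Shared sequence went with low counts. Of the 77 members 75 shared at least 1 word of 50 bases with a pseudogene, and Rpl3l was 1 of the 2 that shared none. The 31 members with under 50% of their words shared had a median of 276 CPM, and the 46 others a median of 96.7 CPM. The percentage depends on the transcript used for a gene. The longest, 5130 bases for Rps15a and 3706 for Rps20, had 6.1% and 7.6% of their words shared. How far other transcripts would change the percentages was not tested. Spearman's rank correlation between the shared percentage and mean CPM was -0.53 across the 77 genes, or -0.41 with CPM per kilobase. The points share the same libraries and the same counting, and genes are not independent replicates. How the authors counted reads with several matching places is not stated here, so levels compared between members are uncertain.

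The comparison between treatments followed shared sequence far less. The rank correlation with the log2 fold change was 0.082, and the median log2 fold change was 0.10 in the 31 less shared members and 0.14 in the 46 others. Some copies had rows of their own. Rpl34 had 1.04 to 1.09 times the counts of Rpl34-ps1 over the 6 libraries, a ratio that was nearly constant. Rps27 had 0.600, 0.602 and 0.688 times the counts of Rps27rt in inotodiol libraries and 0.521, 0.494 and 0.532 times in vehicle libraries. Rplp2 had 0.499, 0.527 and 0.594 times the counts of Rplp2-ps1 in inotodiol libraries and 0.574, 0.483 and 0.522 times in vehicle libraries. Rpl37 had 0.406, 0.377 and 0.365 times the counts of Rpl37rt in inotodiol libraries and 0.349, 0.355 and 0.332 times in vehicle libraries. In 14 members an exon overlaps a listed gene on the other strand, and the strand setting of the counting is not known.

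**Figure D4:**
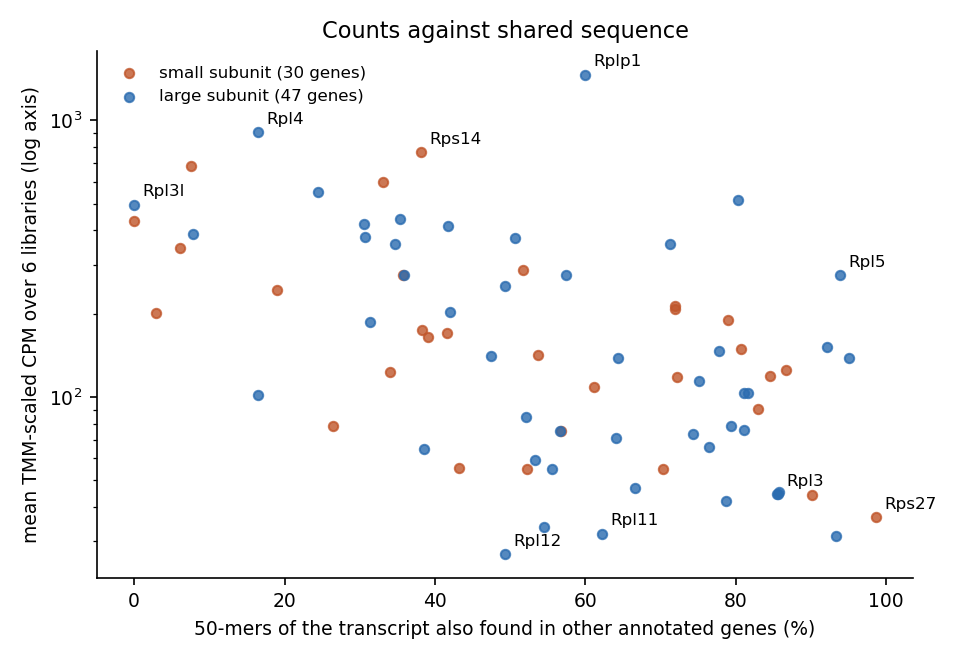
Mean CPM over the 6 libraries (vertical axis, log scale) against the percentage of 50-base words of the transcript found in other genes (horizontal axis) for the 77 members. The median was 276 CPM under 50% shared and 96.7 CPM at 50% or more.

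Genes that work with the ribosome were read from 3 lists. Of 15 elongation factor and other TOP genes, 9 lay above 0 on the log2 fold scale and the median was 0.033. At an unadjusted p under 0.05 in the edgeR test, 0 of them were higher (2.67% of all genes) and 1 was lower (2.21% of all genes). The groups did not overlap for 3 of the 15, all lower with inotodiol (20.0%, against 5.26% of all genes), which were Eef1a1, Eif4b and Hnrnpa1. The gene at an unadjusted p under 0.05 was Eef1a1, the elongation factor that delivers aminoacyl-tRNA in most tissues but gives way to Eef1a2 in adult muscle, at 147, 144 and 133 CPM with inotodiol and 159, 162 and 231 CPM with vehicle. Vehicle library 3 stood above the rest for Eef1a1, and the log2 fold change was -0.38 ± 0.16 (adjusted p = 0.96, edgeR quasi-likelihood test), or -0.18 without that library. Eif4b, an initiation helicase cofactor, stood at -0.21 ± 0.13. Hnrnpa1, a splicing factor with a TOP messenger RNA, stood at -1.26 ± 0.62 on 7 to 14 counts in inotodiol libraries and 24 to 32 in vehicle libraries.

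Of 24 translation initiation factors, 14 were above 0 with a median of 0.044, and 0 had an unadjusted p under 0.05 in the edgeR test. The translation repressor Eif4ebp1, a target of mTORC1, had 43.9, 39.2 and 39.4 CPM with inotodiol and 76.8, 33.3 and 57.6 CPM with vehicle. Its vehicle libraries lay on both sides of the inotodiol values, and the log2 fold change was -0.45 ± 0.24, or -0.15 without vehicle library 1. Eif5, which triggers GTP hydrolysis on the initiation complex, stood at 0.22 ± 0.15, or 0.11 without inotodiol library 2.

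Of 38 ribosome biogenesis factors, 17 were above 0 with a median of -0.018. At an unadjusted p under 0.05, 1 was higher (2.63%, against 2.67% of all genes) and 2 were lower (5.26%, against 2.21%), and 0 passed the adjusted threshold in the edgeR test. Rrs1, an assembly factor that brings 5S RNA with Rpl5 and Rpl11 into the large subunit in yeast, had 20.5, 25.1 and 25.6 CPM with inotodiol and 36.9, 34.1 and 41.1 CPM with vehicle. The groups were clearly apart in Rrs1, at a log2 fold change of -0.65 ± 0.18 (unadjusted p = 0.00299, adjusted p = 0.65). Nop56, a core protein of box C/D small nucleolar ribonucleoproteins, had 54.1, 54.0 and 63.4 CPM with inotodiol and 47.1, 35.1 and 47.1 CPM with vehicle, at a log2 fold change of 0.41 ± 0.17. Ebna1bp2, a large subunit assembly factor, stood at -0.48 ± 0.22. The 38 factors summed to 1189 to 1224 unscaled CPM in inotodiol libraries and 1260 to 1395 in vehicle libraries, without overlap. Under library totals only 33.2% of all genes tested lay above 0, and no test was run on the sum. The sums of the elongation and initiation lists overlapped between the groups.

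Near paralogues and fusion genes of ribosomal proteins that the symbol rule left out were close to the members. Of 11 listed, 9 passed the filter, 6 of the 9 were above 0, and the median was 0.16. Fau, which carries a small subunit protein behind a ubiquitin-like one, stood at 0.20 ± 0.14. Rps3a1 stood at 0.14 ± 0.12 and Gnb2l1, the RACK1 scaffold on the small subunit, at 0.16 ± 0.12. Rps27l, Rps4l and Rpl22l1 stood at -0.080, -0.072 and -0.0068. Rpl10l had 0 counts in every library, and Rpl39l had 0 counts in the 3 inotodiol libraries and 4, 5 and 0 in the vehicle libraries.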

How the data were processed

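RNA-seq counts of 6 gastrocnemius samples were analysed. The authors deposited raw read counts (whole numbers) for each gene symbol. Bowtie2, bedtools and the mm10 build are named in the submitters' processing notes; versions, annotation, strand setting and the handling of reads with several matches were not given in the sources used here. A Lexogen Quant-Seq kit made the libraries from total RNA, per the labels' protocols. Whether counts rise with transcript length was not settled, so levels are given both as CPM and per kilobase.

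Genes were kept with filterByExpr (minimum count 10, minimum total 15). After TMM scaling, edgeR 4.0.16 under R 4.3.3 gave two-sided quasi-likelihood tests with no term but group; p-values were adjusted after Benjamini and Hochberg over all 11700 genes (threshold 0.05). The common biological coefficient of variation was 27.2%. Standard errors used the model's weights and moderated dispersion. P-values measure the spread among 3 mice per group. Repeated symbols (44 rows) stayed separate rows. The test was checked on simulated data.

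The members, the lists of elongation, initiation, biogenesis, near-paralogue and cell type genes, and the rule for naming genes were chosen with earlier results of these data known. Named were Rpl3, Rpl3l, Rpsa and the stalk genes. In each subunit the 4 smallest p in each direction and the 3 highest and lowest levels were added. The leading genes of the lists were also named, of which those that carry the description are printed. Rpl5, Rpl6, Rpl8, Rpl10, the X-linked genes, Rpl34, Rpl37 and the copies were named after their values were seen. Some genes that the rule names are not reported here. The cell type sums in unscaled CPM that are not given beside the results follow, for inotodiol and then vehicle libraries. They were 63.0 to 189 and 109 to 294 for macrophage and 1.68 to 21.6 and 5.74 to 14.0 for lymphocyte markers. Endothelial markers had 95.4 to 104 and 93.7 to 124, and fibroblast markers 907 to 1177 and 1068 to 2049. Adipocyte markers had 126 to 281 and 150.1 to 309. Satellite cell and regeneration markers had 208 to 412 and 236 to 336. Exocrine pancreas markers had 0.618 to 104 and 0.781 to 2.49. The part of these cell types in the results was not tested.

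Coordinates and transcripts are from GENCODE M21 (GRCm38, the assembly of mm10), with 1 transcript per gene. Shared sequence is the percentage of a transcript's 50-base words found on either strand in transcripts of other genes. Alternatives were 3 other scalings (RLE, library totals, upper quartile), a stricter filter or none, DESeq2 1.42.0, limma-voom (limma 3.58.1), edgeR's robust fit, a block for replicate number, each library left out, and other member sets. Scaling to the ribosomal protein total and the split by shared sequence were added after seeing the data.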

Additional observations from a re-analysis of the deposited data

How the results depend on the processing

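No ribosomal protein gene was called under any alternative run. The count of all genes called, 0 with all libraries and the filter, was 95 with no filter, 1 with DESeq2 and between 0 and 25 when 1 library was left out, the 25 coming without inotodiol replicate 3; the cause was not tested. The members' median log2 fold change stayed between 0.090 and 0.21 except with library totals (0.0034), with the ribosomal protein total as the scale (-0.0025, a scale that centres the members by construction) and without inotodiol replicate 3 (0.038). Same-numbered samples of the 2 groups correlated at -0.081, 0.11 and 0.022 in their deviations from the group means, so the numbers were not taken to pair them; with the replicate number as a block the median was 0.11, 0 genes were called and the paired Rpl3l to Rpl3 difference was -0.053.

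Leaving out 1 library moved the Rpl3l to Rpl3 log2 difference between -0.28 and 0.099. It also turned the sign of small log2 fold changes, which ran from -0.016 to 0.19 for Rpl12, -0.20 to 0.14 for Rpl22l1, -0.13 to 0.093 for Rpl30, -0.093 to 0.086 for Rpl35a, -0.0068 to 0.046 for Rpl4, -0.028 to 0.095 for Rplp2, -0.055 to 0.20 for Rps12, -0.085 to 0.065 for Rps14, -0.23 to 0.011 for Rps19, -0.12 to 0.020 for Rps23 and -0.33 to 0.39 for Rps4l. With library totals Rps12 was at -0.034, Rpl3l at -0.058, Rpl12 at -0.012, Rplp2 at -0.087 and Rpl4 at -0.092. With the ribosomal protein total as the scale Rps12 was at -0.045, Rpl3l at -0.051, Rpl12 at -0.019, Rplp0 at -0.0025, Rps9 at -0.0040, Rplp2 at -0.088 and Rpl4 at -0.089. Rpl22l1 was at 0.025 with limma-voom and 0.025 with the replicate block, and Rps4l at 0.0038 with limma-voom. Leaving out 1 library moved the log2 fold change by over 1.5 times in 38 of 58 named genes, none of them called with all libraries. Of 984 values of single genes recomputed, 945 kept their direction and side of the threshold. Rn45s was called with no filter and without inotodiol replicate 3. Depth was similar in the 6 libraries, and with 3 mice per group the median 95% interval of a member reached 0.31 log2 units to each side.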
